A study of Mus musculus with 19 samples.

Results

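The genes described here belong to the unfolded protein response and the integrated stress response, the programmes that cells use when proteins misfold in the endoplasmic reticulum (ER) or when translation is throttled. The set was drawn up by function and comprised 31 genes: 15 ER chaperones and folding enzymes, 6 sensors and transcription factors, 4 genes of ER-associated degradation and 6 targets of Atf4 and Ddit3. A gene was read from the array row whose annotation gave it as the only symbol, and where there were several such rows from the one with the highest mean. This left 29 of the 31 genes, among 65956 rows of the whole series that are not control rows. Pdia4 shares its row with Mir704 and Manf shares its row with Rbm15b, so neither has values here. Only Ddit3 had 2 rows of its own.

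RNA was measured on Clariom D whole-transcript arrays in CD31+ endothelial cells sorted from the brains of wild-type male C57BL/6N mice of 8 to 10 weeks. In chronic social defeat (CSD) a mouse is put daily with an aggressive CD-1 male, for 10 minutes in the labels and 5 minutes in the protocol, and otherwise lives beside it. The groups were CSD1 (1 day of defeat, 3 animals, numbered 4, 18 and 19), CSD7 (7 days, 4 animals, 9, 16, 17 and 25), CSD14 (14 days, 4 animals, 12 to 15), CSDrec (14 days of defeat and then 7 days that the labels call recreation, 4 animals, 28 to 31) and HC (home cage, no defeat, 4 animals, 1, 2, 5 and 6). Mice of CSD7, CSD14 and CSDrec were chosen for their susceptible behaviour, and CSD1 mice were not phenotyped. Cells were taken 16 hours after the last encounter in CSD1, CSD7 and CSD14, and after the 7 further days in CSDrec. HC animal 5 carries the word stressed in its diet field but is a home cage animal by its title and source, and was kept as HC. All 4 comparisons with HC share the same 4 HC animals, and p-values measure the spread between animals.

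In the unfolded protein response, 3 sensors in the ER membrane, IRE1 (encoded by Ern1), PERK (Eif2ak3) and ATF6, are held in check by the chaperone BiP (Hspa5) until unfolded proteins draw it away. IRE1 splices the mRNA of Xbp1 and ATF6 is cleaved to a transcription factor. Together these raise ER chaperones and the machinery that exports misfolded proteins for degradation. PERK phosphorylates the initiation factor eIF2, which slows most translation but favours that of Atf4, and Atf4 with Ddit3 (CHOP) raises genes of amino acid supply, redox balance and translational recovery. That arm can be entered without ER stress, through other eIF2 kinases, and is then called the integrated stress response. Endothelial cells secrete matrix and receptors through the ER, and an array of RNA does not measure sensor activity or the splicing of Xbp1.

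The sequence elements through which these arms act can be read in the promoters of the genes themselves, in RefSeq windows (GRCm38.p6) from 250 bases before to 50 after the annotated start. A window was found for 28 of the 31 genes, all but Hyou1, Manf and Atf6. The ER stress element (ERSE: CCAAT, 9 bases of any kind, CCACG), bound by ATF6 and XBP1, was searched for on both strands. It was present in 7 of 13 chaperone windows (53.8%), against 37 of all 27025 genes with a window (0.137%). ERSE-II (ATTGG, 1 base, CCACG) added Dnajb11, which made 8 of 13 (61.5%), against 0.181% of all genes with a window. The stretches below show the element in capitals, on the strand of the gene, in the chaperones with a match before the start site. Hspa5 is given with 200 bases, as the best known target of the element, and the others with 30 bases on each side or up to the start site.
Hspa5 (chr2:34771890-34772089, strand +): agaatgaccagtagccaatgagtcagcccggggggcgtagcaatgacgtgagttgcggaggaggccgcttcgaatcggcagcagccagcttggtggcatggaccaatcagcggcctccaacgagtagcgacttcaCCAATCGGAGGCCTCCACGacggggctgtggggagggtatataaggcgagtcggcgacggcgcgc
Hsp90b1 (chr10:86705503-86705686, strand -): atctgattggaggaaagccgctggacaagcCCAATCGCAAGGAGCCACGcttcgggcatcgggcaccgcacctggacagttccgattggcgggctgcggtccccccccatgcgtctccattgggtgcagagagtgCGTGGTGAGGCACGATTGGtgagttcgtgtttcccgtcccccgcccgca
Calr (chr8:84847045-84847123, strand -): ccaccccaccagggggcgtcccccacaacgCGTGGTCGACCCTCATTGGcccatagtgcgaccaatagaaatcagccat
Canx (chr11:50325770-50325848, strand -): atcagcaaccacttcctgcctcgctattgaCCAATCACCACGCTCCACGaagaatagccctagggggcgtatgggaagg
Pdia6 (chr12:17266461-17266539, strand +): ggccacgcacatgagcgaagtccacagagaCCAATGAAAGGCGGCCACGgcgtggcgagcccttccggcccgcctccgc
Dnajc3 (chr14:118937797-118937875, strand +): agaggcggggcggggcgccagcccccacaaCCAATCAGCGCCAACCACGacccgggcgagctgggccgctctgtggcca
Creld2 (chr15:88819490-88819568, strand +): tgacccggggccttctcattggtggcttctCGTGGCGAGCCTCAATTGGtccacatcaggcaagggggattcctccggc

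Both strands were represented: the element reads forward in Hspa5, Canx, Pdia6 and Dnajc3 and in reverse in Calr and Creld2, while Hsp90b1 holds 1 copy in each orientation. Among the degradation genes, Syvn1 held ERSE and Herpud1 held ERSE-II. Herpud1 also held the C/EBP-ATF element that ATF4 and CHOP can bind (TGATGNAAN, either strand), and was the only one of the 28 genes with a window that held both kinds. The C/EBP-ATF element was found in 3 of 6 target windows (Trib3, Chac1 and Asns), 0 of 13 chaperone windows and 4.50% of all genes with a window. Neither ERSE nor ERSE-II was found in a target window. The XBP1 element UPRE (TGACGTGG) was in 0 of 28 windows, against 0.714% of all genes with a window. Capitals mark the matches in the stretches of the degradation genes and of 2 targets.
Herpud1 (chr8:94386286-94386417, strand +): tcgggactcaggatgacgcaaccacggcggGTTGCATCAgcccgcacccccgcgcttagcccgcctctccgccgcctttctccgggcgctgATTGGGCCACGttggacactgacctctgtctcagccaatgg
Syvn1 (chr19:6046502-6046575, strand +): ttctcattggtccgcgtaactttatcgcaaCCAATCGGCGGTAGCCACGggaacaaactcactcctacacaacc
Chac1 (chr2:119351018-119351086, strand +): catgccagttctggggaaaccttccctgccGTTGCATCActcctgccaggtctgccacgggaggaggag
Asns (chr6:7693210-7693262, strand -): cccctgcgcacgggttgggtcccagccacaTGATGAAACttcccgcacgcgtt

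These matches are descriptions of letters, and a window without one says only that the letters are not there. The 8 chaperones with ERSE or ERSE-II had a median log2 difference from HC of 0.63 in CSD1, 0.44 in CSD7, 0.39 in CSD14, then 0.33 in CSDrec. The 4 chaperones with a window and no match (Pdia3, P4hb, Dnajb9 and Sdf2l1) had 0.48, 0.35, 0.33 and 0.27 in the same order (Pdia4, without a match, has no values), and their ranges overlapped those of the others in every group.

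**Figure D1:**
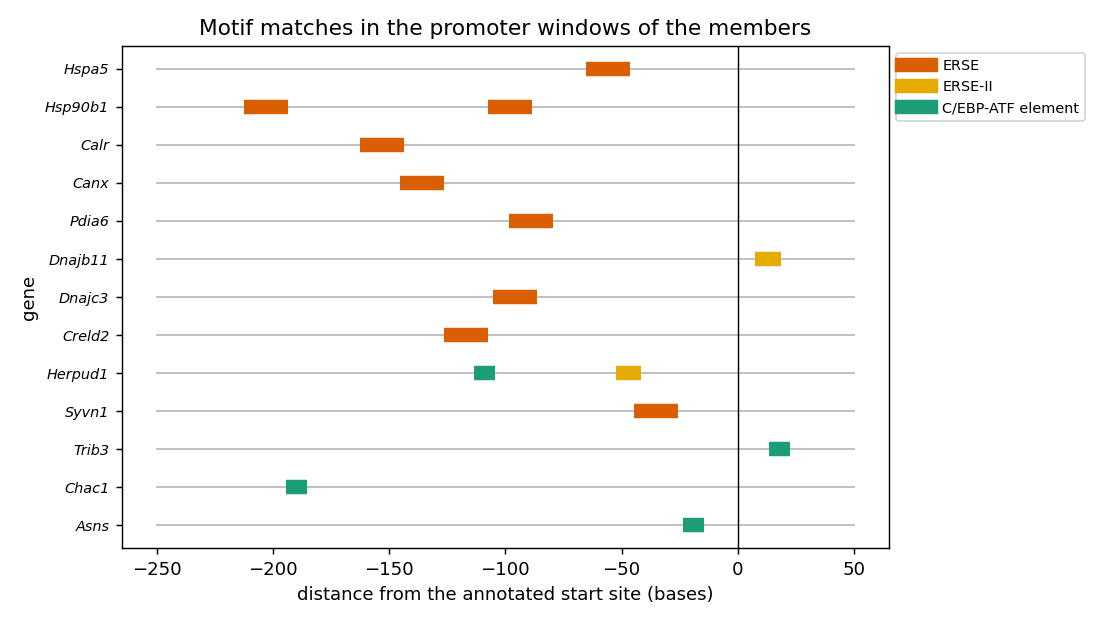
Positions of the motif matches in the windows of the 13 genes with at least 1 match, in bases from the annotated start site; bars show ERSE, ERSE-II and the C/EBP-ATF element. ERSE and ERSE-II lie on chaperones and on 2 degradation genes, and the C/EBP-ATF element lies on 3 targets and on Herpud1.

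The cells read as endothelial: the 12 endothelial markers averaged 10.5 in CSD1, CSD7, CSD14 and CSDrec and 10.2 in HC on the log2 scale. Of these markers 4, 2, 6 and 0 were themselves called higher than HC by limma, with median differences of 0.28, 0.24, 0.31 and 0.23. Plasma cell and lymphocyte markers, whose own ER is highly developed, averaged 2.98 to 3.07 in all groups. That is below the receptor level of log2 3.10, the 95th percentile of 1758 rows for olfactory, vomeronasal and taste receptors, which served as the mark of expression; all 29 genes averaged above it. Microglial markers moved with the stress groups (mean over the 11 measured of 5.28, 5.52, 5.10 and 5.35 for CSD1, CSD7, CSD14 and CSDrec, against 4.23 in HC, with array ranges of 4.49 to 5.84, 4.72 to 6.23, 4.86 to 5.23 and 4.92 to 5.57, against 4.07 to 4.36), and 4, 10, 2 and 0 of them passed the limma threshold. C1qb was at a difference of 1.98 in CSD1 and Aif1 at 0.22. The 7 astrocyte markers measured averaged 4.39, 4.72, 3.99 and 4.22 for CSD1, CSD7, CSD14 and CSDrec, against 3.80 in HC, and the 7 neuron markers 4.08, 4.36, 4.13 and 4.11, against 3.86. For both lists every stressed array (3.89 to 6.01 for astrocytes, 3.97 to 5.04 for neurons) lay above every HC array (3.69 to 3.88 and 3.80 to 3.92), and CSD7 animal 9 was the highest array. Of the astrocyte markers 1 passed, in CSD7, and of the neuron markers Stmn2 alone, at 1.11, 1.31 and 1.28 in CSD1, CSD7 and CSD14. The median difference of the 7 neuron markers was 0.10, 0.32, 0.15 and 0.24 in CSD1, CSD7, CSD14 and CSDrec. The 8 border macrophage markers averaged 3.23, 3.46, 3.25 and 3.99, against 3.14 in HC. The part of these cell types in the results below was not tested, and in RNA of sorted cells a change in cell mixture and a change in RNA per cell cannot be told apart. The HC arrays were not alike. Those of animals 1 and 2 told positive from negative controls less well (area under the ROC curve 0.845 and 0.830) than the remaining 17 did (0.891 to 0.929), and the median of rows above the receptor level was 4.01 and 4.00 on them, against 4.39 to 4.50 on the others. Pericyte markers (mean over 8) were at 7.0 and 6.80 on HC animals 5 and 6, the highest of the 19 arrays, and at 4.57 and 4.53 on HC animals 1 and 2, the lowest, with stressed arrays at 5.01 to 6.68. Smooth muscle markers (mean over 6) were at 4.89 and 4.98 on HC animals 5 and 6 and at 3.96 and 3.93 on HC animals 1 and 2, with stressed arrays at 4.35 to 5.92. Their part in the differences from either pair of HC animals was not tested. Rows above the receptor level differed from HC by a median log2 of 0.23, 0.22, 0.21 and 0.22 for CSD1, CSD7, CSD14 and CSDrec, and the differences of the genes described below are given also without these 2 animals.

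After 1 day of defeat 16 of the 29 genes rose and 0 fell (limma, Benjamini-Hochberg adjusted p below 0.05 over all rows), where 5.84% of all rows and 12.6% of rows above the receptor level were called higher and 0.96% of all rows lower. After 7 days 18 rose and 0 fell (9.04% and 19.2% of rows called higher, 1.96% lower), and after 14 days 14 rose and 0 fell (6.87% and 14.5% higher, 1.03% lower). After recovery none passed, by limma or by the unmoderated one-way test, with 22 and 21 at an unadjusted p below 0.05; only 0.0167% of all rows and 0.0364% of those above the receptor level were called higher there, and 0 lower. All 29 differences from HC were positive in each of the 4 groups, with medians of 0.50, 0.49, 0.47 and 0.38 for CSD1, CSD7, CSD14 and CSDrec, against 0.23, 0.22, 0.21 and 0.22 over rows above the receptor level. With all arrays set to 1 distribution 14 of these 116 differences turned negative: those of Dnajb9 in all 4 groups, of Chac1 in CSD1, CSD14 and CSDrec, of Dnajc3 in CSD14 and CSDrec, of Syvn1 in CSD1, of Hsp90b1 and Canx in CSD14, and of Hspa5 and Atf4 in CSDrec. Every stressed animal lay above every HC animal for 10 genes in CSD1, 18 in CSD7, 16 in CSD14, then 12 in CSDrec; among all rows this held for 9.78%, 7.47%, 10.1% and 8.38%, and among those above the receptor level for 19.5%, 14.8%, 19.5% and 15.6%. With HC animals 5 and 6 alone, 0 genes were called by limma in any group, while 27, 27, 25 and 24 of the 29 differences were positive. Then 14, 10, 9 and 3 genes were at an unadjusted p below 0.05, against 5.65%, 6.02%, 5.74% and 4.88% of all rows that were so and higher. The share among rows above the receptor level, where all 29 genes lie, was not computed for this fit. The medians were 0.29, 0.24, 0.20 and 0.14, against 0.057, 0.056, 0.05 and 0.051 over rows above the receptor level. The count in CSD1 was also 0 without CSD1 animal 18 or CSD1 animal 19, and leaving out HC animal 1 or HC animal 2 alone gave 0 in CSD1 and CSD7 and 0 or 2 in CSD14.

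**Figure D2:**
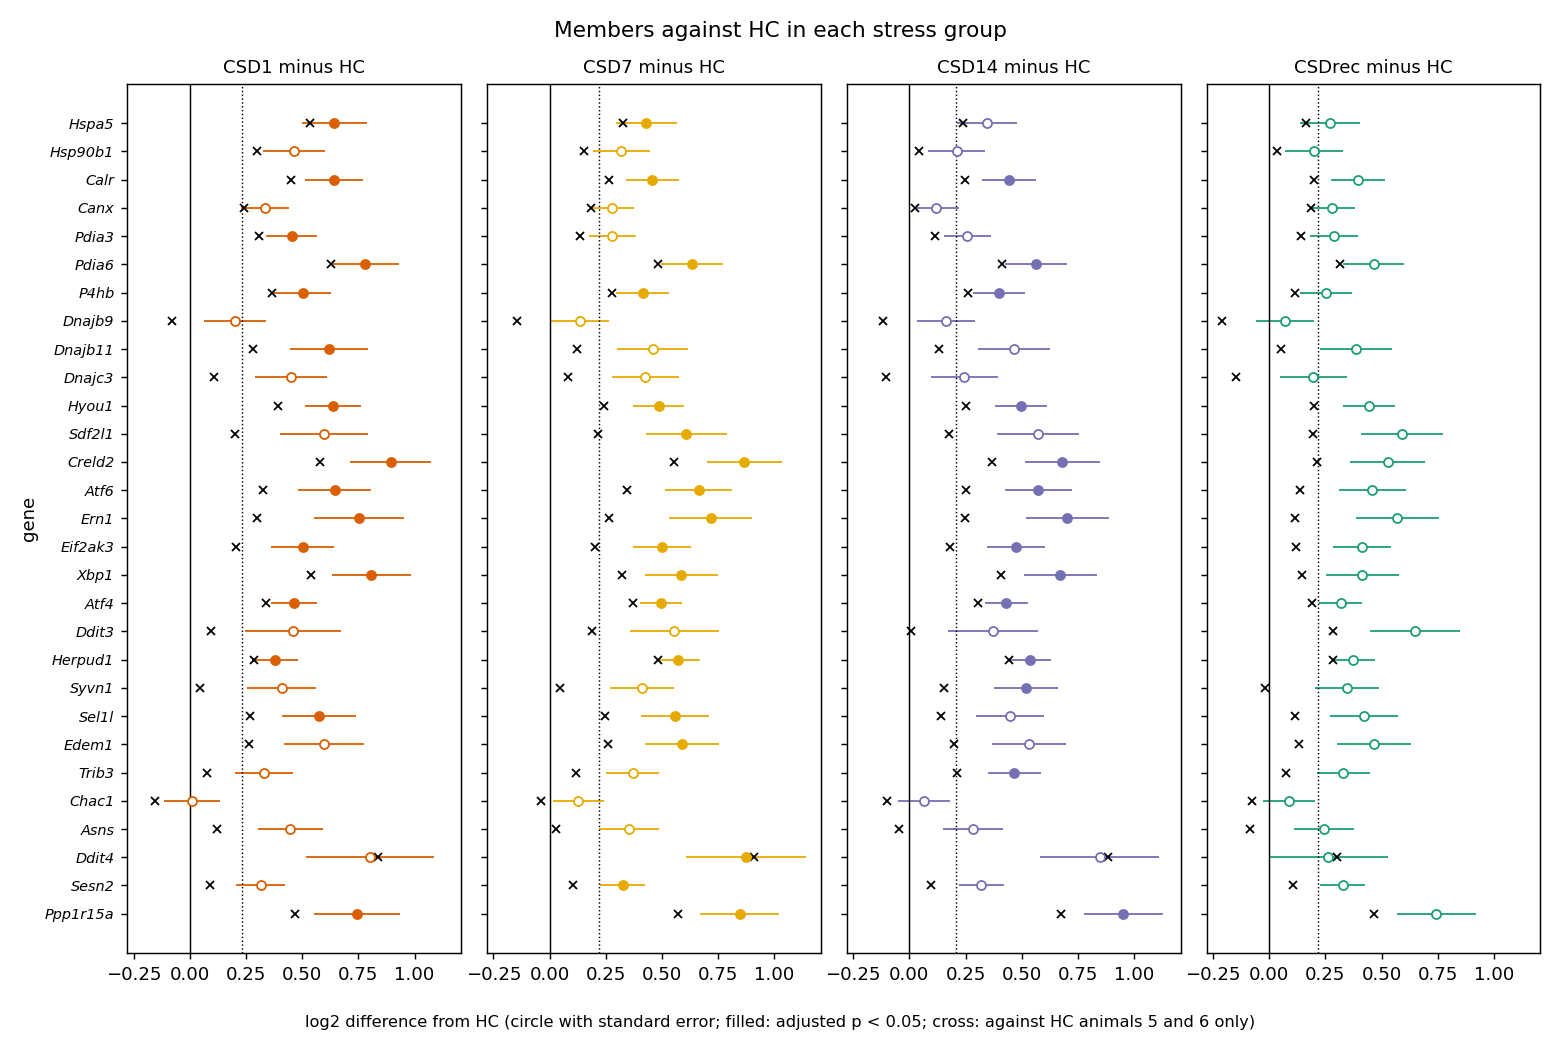
Log2 difference from HC with its standard error for the 29 genes (rows) in CSD1, CSD7, CSD14 and CSDrec (panels); filled circles passed an adjusted p of 0.05, crosses give the difference from HC animals 5 and 6 only, and the dotted line marks the median of rows above the receptor level. All circles lie right of 0, with 16, 18, 14 and 0 of them filled, and Creld2, Xbp1, Ddit4 and Ppp1r15a are among the farthest out.

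**Figure D3:**
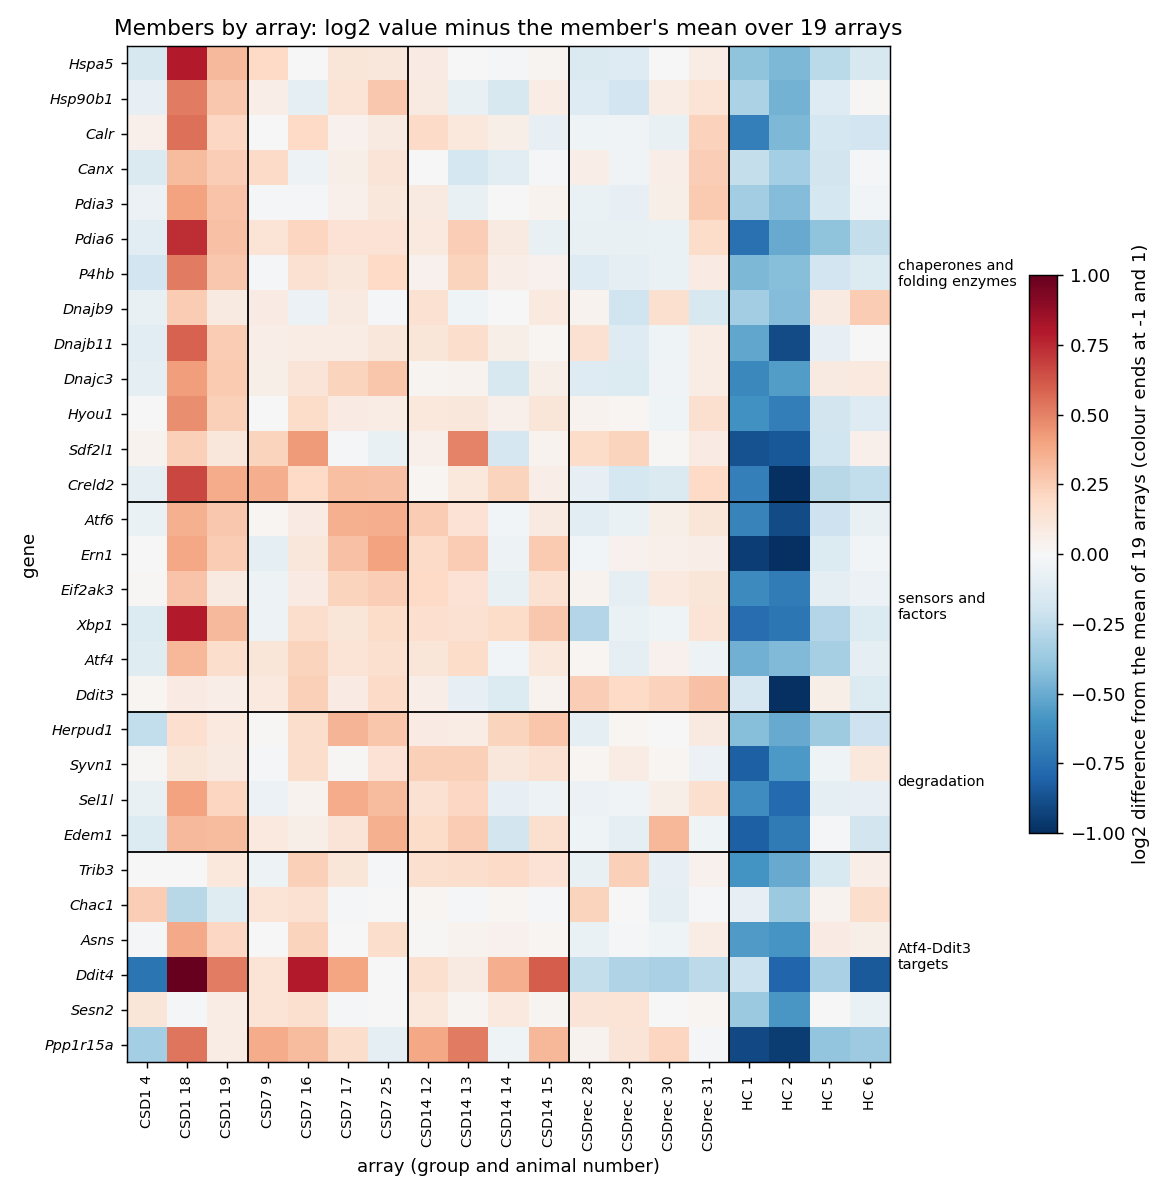
Log2 value of each gene (rows, by role) on each array (columns, by group and animal) as the difference from the gene's mean over 19 arrays, with red above and blue below it. CSD1 animal 18 was the highest array for 19 genes, and HC animal 2 was the lowest for 18 and HC animal 1 for 10.

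Among the ER chaperones and folding enzymes, 8 of 13 rose in CSD1, 7 in CSD7, 5 in CSD14 but 0 in CSDrec. Of rows above the receptor level, 12.6%, 19.2%, 14.5% and 0.0364% were called higher in the same order. Per-array values are given in the order of the animal numbers above, as log2 intensity. Hspa5 (BiP), the master chaperone and the brake on the sensors, was at 6.95, 7.91 and 7.44 in CSD1, 7.31, 7.11, 7.24 and 7.23 in CSD7, 7.20, 7.11, 7.10 and 7.14 in CSD14, 6.97, 6.98, 7.11 and 7.19 in CSDrec, against 6.71, 6.66, 6.85 and 6.95 in HC. Every stressed animal exceeded every HC animal, CSD1 animal 4 only narrowly, and CSD1 animal 18 was the highest array. The difference was 0.64 ± 0.14 in CSD1 (± standard error; limma adjusted p = 0.0302), 0.43 ± 0.13 in CSD7 (adjusted p = 0.0475), 0.34 ± 0.13 in CSD14 (adjusted p = 0.106), with 0.27 ± 0.13 in CSDrec (adjusted p = 0.207). Set against HC animals 5 and 6 only, it was 0.54, 0.32, 0.24 and 0.16, and with all arrays set to 1 distribution the difference in CSDrec turned to -0.021.

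Creld2, an ER-resident protein induced by ER stress, gave the largest difference of any chaperone in CSD1, CSD7 and CSD14. It was at 6.45, 7.21 and 6.92 in CSD1, 6.91, 6.75, 6.85 and 6.84 in CSD7, 6.56, 6.65, 6.77 and 6.62 in CSD14, 6.47, 6.37, 6.40 and 6.75 in CSDrec, against 5.87, 5.44, 6.27 and 6.30 in HC. No stressed animal overlapped HC, and CSD1 animal 18 was the highest array. The difference was 0.89 ± 0.18 in CSD1 (1.86-fold, limma adjusted p = 0.0272), 0.87 ± 0.17 in CSD7 (1.82-fold, adjusted p = 0.0152) and 0.68 ± 0.17 in CSD14 (1.6-fold, adjusted p = 0.0259), and 0.53 ± 0.17 in CSDrec, where it did not pass (adjusted p = 0.0809). Without HC animals 1 and 2, the differences were 0.58, 0.55, 0.37 and 0.21.

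Pdia6, a disulfide isomerase that also attenuates IRE1 and PERK, was at 7.15, 8.0 and 7.56 in CSD1, 7.39, 7.48, 7.41 and 7.41 in CSD7, 7.36, 7.51, 7.36 and 7.19 in CSD14, 7.18, 7.19, 7.20 and 7.44 in CSDrec, against 6.52, 6.76, 6.86 and 7.02 in HC. The groups did not overlap with HC. CSD1 animal 18 stood highest. The difference was 0.78 ± 0.15 in CSD1, 0.63 ± 0.14 in CSD7 and 0.56 ± 0.14 in CSD14 (limma adjusted p = 0.027, 0.0182 and 0.0257), and 0.46 ± 0.14 in CSDrec (adjusted p = 0.0732). When HC animals 1 and 2 were left out, it was 0.63, 0.48, 0.41 and 0.31, the largest of the chaperones in CSD1, CSD14 and CSDrec.

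The lectin chaperone Calr, which folds glycoproteins and buffers ER calcium, was at 8.06, 8.56 and 8.22 in CSD1, 8.01, 8.21, 8.05 and 8.10 in CSD7, 8.20, 8.12, 8.07 and 7.93 in CSD14, 7.97, 7.98, 7.94 and 8.24 in CSDrec, against 7.32, 7.56, 7.84 and 7.82 in HC. Its 4 stress groups were all above HC without overlap, and CSD1 animal 18 and CSDrec animal 31 were highest in their groups. It increased by 0.64, 0.46 and 0.44 in CSD1, CSD7 and CSD14 (limma adjusted p = 0.0272, 0.0275 and 0.0355). Hyou1, the large chaperone that recharges BiP with ATP, was at 6.44, 6.90 and 6.67 in CSD1, 6.43, 6.62, 6.51 and 6.50 in CSD7, 6.54, 6.55, 6.48 and 6.55 in CSD14, 6.47, 6.46, 6.39 and 6.59 in CSDrec, against 5.83, 5.74, 6.25 and 6.30 in HC. It too was higher on every stressed array than on any HC array, and rose by 0.64, 0.49 and 0.50 (adjusted p = 0.027, 0.0217 and 0.0219), with 0.44 ± 0.11 in CSDrec (adjusted p = 0.0623). With HC animals 5 and 6 alone, the differences in CSD1, CSD7, CSD14 and CSDrec were 0.45, 0.26, 0.25 and 0.20 for Calr and 0.39, 0.24, 0.25 and 0.20 for Hyou1.

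Another 4 folding genes passed in at least 1 group. P4hb, protein disulfide isomerase itself and a subunit of the collagen prolyl 4-hydroxylase, was at 8.31, 9.02 and 8.77 in CSD1, 8.48, 8.66, 8.61 and 8.70 in CSD7, 8.55, 8.73, 8.57 and 8.55 in CSD14, 8.38, 8.41, 8.44 and 8.59 in CSDrec, against 8.05, 8.07, 8.31 and 8.36 in HC. It increased by 0.50, 0.41 and 0.40 in CSD1, CSD7 and CSD14 (limma adjusted p = 0.0347, 0.0348 and 0.0451), although CSD1 animal 4 lay below HC animal 6. Pdia3, the isomerase that works with calnexin and calreticulin, was at 8.67, 9.13 and 9.01 in CSD1, 8.72, 8.72, 8.78 and 8.84 in CSD7, 8.82, 8.65, 8.73 and 8.77 in CSD14, 8.66, 8.65, 8.79 and 8.99 in CSDrec, against 8.38, 8.30, 8.55 and 8.71 in HC. It rose in CSD1 only by the threshold (0.45, adjusted p = 0.0339), and its differences of 0.28, 0.26 and 0.29 in CSD7, CSD14 and CSDrec did not pass. Dnajb11, a co-chaperone that hands unfolded proteins to BiP, was at 5.53, 6.22 and 5.89 in CSD1, 5.70, 5.71, 5.71 and 5.75 in CSD7, 5.75, 5.81, 5.69 and 5.65 in CSD14, 5.78, 5.50, 5.59 and 5.71 in CSDrec, against 5.11, 4.74, 5.55 and 5.64 in HC. It rose in CSD1 (0.62, adjusted p = 0.0434), where animal 4 overlapped HC, and was just past HC without overlap in CSD7 and CSD14. Sdf2l1, its partner, was at 5.12, 5.32 and 5.20 in CSD1, 5.31, 5.51, 5.07 and 5.01 in CSD7, 5.14, 5.58, 4.91 and 5.12 in CSD14, 5.26, 5.30, 5.09 and 5.16 in CSDrec, against 4.21, 4.23, 4.89 and 5.13 in HC. It rose in CSD7 alone by the threshold (0.61, adjusted p = 0.0413), with differences of 0.60, 0.57 and 0.59 in CSD1, CSD14 and CSDrec, and HC animals 1 and 2 lay well below HC animals 5 and 6. Against HC animals 5 and 6 only, its differences were 0.20, 0.21, 0.18 and 0.20. On the same footing P4hb was at 0.37, 0.28, 0.26 and 0.12, Pdia3 at 0.31, 0.13, 0.11 and 0.14 and Dnajb11 at 0.28, 0.12, 0.13 and 0.051.

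The other 4 chaperones passed in no comparison. Hsp90b1 (GRP94) and Canx (calnexin) had means of 8.83 to 9.09 and 8.53 to 8.75 in the stress groups, against 8.63 and 8.41 in HC, and their differences from HC ranged from 0.20 to 0.47 and from 0.12 to 0.34. Dnajc3, which restrains PERK, differed by 0.45, 0.43, 0.24 and 0.20 in CSD1, CSD7, CSD14 and CSDrec. Dnajb9 (ERdj4), a feedback repressor of IRE1, differed by 0.20, 0.14, 0.16 and 0.07. It moved least of the chaperones in CSD1, CSD7 and CSDrec, while in CSD14 Canx moved least (0.12). For Dnajb9, HC animal 6 was at 8.70, the level of CSD1 animal 18. Set against HC animals 5 and 6 only, Dnajb9 was lower in all 4 groups (-0.081, -0.15, -0.12 and -0.21) and Dnajc3 was lower in CSD14 and CSDrec (0.11, 0.080, -0.10 and -0.15), while Hsp90b1 was at 0.30, 0.15, 0.043 and 0.033 and Canx at 0.24, 0.18, 0.027 and 0.19. Both Hsp90b1 and Canx turned below 0 in CSD14, and Hsp90b1 in CSDrec, when arrays were centred on the median of rows above the receptor level.

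Of the sensors and their transcription factors 5 of 6 rose in each of CSD1, CSD7 and CSD14, and 0 in CSDrec, with medians of 0.57, 0.57, 0.52 and 0.44. The shares of rows above the receptor level called higher were 12.6%, 19.2%, 14.5% and 0.0364%. Xbp1, the transcription factor whose mRNA IRE1 splices, was at 7.27, 8.20 and 7.74 in CSD1, 7.36, 7.59, 7.53 and 7.59 in CSD7, 7.58, 7.56, 7.59 and 7.68 in CSD14, 7.12, 7.35, 7.37 and 7.55 in CSDrec, against 6.65, 6.68, 7.12 and 7.27 in HC. CSD1 animal 18 was highest at 8.20, and only CSD1 animal 4 (level with HC animal 6) and CSDrec animal 28 (level with HC animal 5) reached into the HC range. It rose by 0.81 in CSD1 (1.75-fold, limma adjusted p = 0.0294), 0.59 in CSD7 (adjusted p = 0.0335) and 0.67 in CSD14 (adjusted p = 0.0254), with 0.41 ± 0.16 in CSDrec (adjusted p = 0.128). Without HC animals 1 and 2, it was 0.54, 0.32, 0.41 and 0.15, and the row gives the sum of the spliced and unspliced forms.

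Atf4, the transcription factor of the PERK arm, was at 6.63, 7.09 and 6.93 in CSD1, 6.88, 6.98, 6.89 and 6.91 in CSD7, 6.88, 6.94, 6.72 and 6.86 in CSD14, 6.78, 6.66, 6.80 and 6.70 in CSDrec, against 6.27, 6.32, 6.42 and 6.66 in HC. The CSD7 animals stood close together and clear of HC, as did CSD14 and, narrowly, CSDrec, while CSD1 animal 4 fell below HC animal 6. It increased by 0.46, 0.50 and 0.43 in CSD1, CSD7 and CSD14 (limma adjusted p = 0.0294, 0.0152 and 0.0191), with 0.32 ± 0.094 in CSDrec (adjusted p = 0.0725). When HC animals 1 and 2 were left out, it was 0.34, 0.37, 0.31 and 0.19. With all arrays set to 1 distribution the difference in CSDrec turned to -0.0064. Atf4 is regulated mainly in translation, which these arrays do not read.

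Ddit3 (CHOP), the factor that accompanies prolonged ER stress, was the only one of the 6 that passed in no group. Its higher row was at 5.58, 5.64 and 5.62 in CSD1, 5.66, 5.80, 5.64 and 5.75 in CSD7, 5.63, 5.48, 5.42 and 5.59 in CSD14, 5.81, 5.76, 5.79 and 5.85 in CSDrec, against 5.39, 4.19, 5.62 and 5.42 in HC. All CSDrec arrays lay above all CSD14 arrays (among all rows, 2.5% were so), and HC animal 2 stood far below the other HC arrays. The difference was 0.46 ± 0.22, 0.56 ± 0.20, 0.37 ± 0.20 and 0.65 ± 0.20 in CSD1, CSD7, CSD14 and CSDrec (limma adjusted p = 0.163, 0.0732, 0.223 and 0.0773). Against HC animals 5 and 6 only, it was 0.094, 0.19, 0.0078 and 0.28. The second Ddit3 row, at a lower level, differed by 0.25, 0.18, 0.20 and 0.32 and passed in no group either. In that row CSDrec overlapped with CSD14: CSDrec animal 28 was at 5.32 and CSD14 animal 12 at 5.36.

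The 3 sensors themselves behaved alike in HC, with animals 1 and 2 well below animals 5 and 6. Atf6 was at 6.53, 6.95 and 6.86 in CSD1, 6.62, 6.68, 6.95 and 6.96 in CSD7, 6.85, 6.74, 6.57 and 6.69 in CSD14, 6.49, 6.53, 6.65 and 6.72 in CSDrec, against 5.93, 5.71, 6.39 and 6.52 in HC. Ern1 was at 5.55, 5.94 and 5.81 in CSD1, 5.46, 5.66, 5.84 and 5.96 in CSD7, 5.74, 5.81, 5.50 and 5.81 in CSD14, 5.52, 5.60, 5.60 and 5.62 in CSDrec, against 4.61, 4.51, 5.41 and 5.52 in HC. Eif2ak3 was at 5.64, 5.92 and 5.72 in CSD1, 5.58, 5.71, 5.85 and 5.87 in CSD7, 5.83, 5.77, 5.55 and 5.78 in CSD14, 5.66, 5.54, 5.73 and 5.75 in CSDrec, against 4.99, 4.93, 5.54 and 5.57 in HC. Stressed animals lay above or just inside the higher pair of HC animals and far above the lower pair. Atf6 increased by 0.64, 0.66 and 0.57 in CSD1, CSD7 and CSD14, Ern1 by 0.75, 0.72 and 0.70, and Eif2ak3 by 0.50, 0.50 and 0.48 (limma adjusted p between 0.019 and 0.043 in all 9 cases). Set against HC animals 5 and 6 only, the differences in CSD1, CSD7, CSD14 and CSDrec were 0.32, 0.34, 0.25 and 0.14 for Atf6, 0.30, 0.26, 0.25 and 0.12 for Ern1 and 0.21, 0.20, 0.18 and 0.12 for Eif2ak3.

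In ER-associated degradation 2 of 4 genes rose in CSD1, 3 in CSD7, 2 in CSD14 but 0 in CSDrec. The shares of rows above the receptor level called higher were 12.6%, 19.2%, 14.5% and 0.0364%. Herpud1, a membrane scaffold of the export complex and a classical target of both arms, had the smallest p of all 29 genes in CSD7 and CSD14, and was the only one called by the limma F-test over the 5 groups (adjusted p = 0.0485; 0.555% of all rows were called), a call that was lost with HC animals 5 and 6 only, with the unmoderated test and under other scalings. It was at 8.38, 8.79 and 8.72 in CSD1, 8.63, 8.80, 8.96 and 8.90 in CSD7, 8.70, 8.70, 8.84 and 8.90 in CSD14, 8.53, 8.64, 8.62 and 8.71 in CSDrec, against 8.20, 8.12, 8.27 and 8.42 in HC. Except for CSD1 animal 4, which lay just below HC animal 6, every stressed animal was above every HC animal, and CSD7 animals 17 and 25 and CSD14 animal 15 were highest. The difference was 0.38 ± 0.10 in CSD1, 0.57 ± 0.096 in CSD7 and 0.53 ± 0.096 in CSD14 (adjusted p = 0.0414, 0.0152 and 0.0133), and 0.38 ± 0.096 in CSDrec (adjusted p = 0.062). Without HC animals 1 and 2, it was 0.29, 0.48, 0.44 and 0.28, with unadjusted limma p of 0.0282, 0.000618, 0.00125 and 0.0234.

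Sel1l, the adaptor of the ubiquitin ligase HRD1, was at 6.97, 7.45 and 7.26 in CSD1, 6.99, 7.07, 7.41 and 7.36 in CSD7, 7.19, 7.25, 6.96 and 6.99 in CSD14, 6.98, 7.00, 7.10 and 7.20 in CSDrec, against 6.42, 6.26, 6.95 and 6.96 in HC. It rose in CSD1 and CSD7 (0.57 and 0.56, limma adjusted p = 0.0455 and 0.0311). Edem1, which draws mannose-trimmed glycoproteins out of folding, was at 5.09, 5.55 and 5.54 in CSD1, 5.32, 5.28, 5.35 and 5.58 in CSD7, 5.40, 5.47, 5.04 and 5.38 in CSD14, 5.17, 5.13, 5.55 and 5.18 in CSDrec, against 4.40, 4.51, 5.21 and 5.04 in HC. It rose in CSD7 (0.59, adjusted p = 0.0337) and missed the threshold in CSD1 and CSD14 (adjusted p = 0.0506 and 0.0542). Syvn1, which encodes HRD1, was at 5.43, 5.54 and 5.50 in CSD1, 5.40, 5.59, 5.42 and 5.55 in CSD7, 5.65, 5.65, 5.53 and 5.56 in CSD14, 5.43, 5.49, 5.43 and 5.35 in CSDrec, against 4.59, 4.83, 5.37 and 5.52 in HC. It rose in CSD14 (0.52, adjusted p = 0.036), and with HC animals 5 and 6 only its differences were 0.044, 0.047, 0.15 and -0.018. In all 3 genes HC animals 1 and 2 were the lowest of the 19 arrays, and without them Sel1l differed by 0.27, 0.25, 0.14 and 0.11 and Edem1 by 0.27, 0.26, 0.20 and 0.13.

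Of the 6 targets of Atf4 and Ddit3, 1 rose in CSD1, 3 in CSD7, 2 in CSD14 but 0 in CSDrec. The shares of rows above the receptor level called higher were 12.6%, 19.2%, 14.5% and 0.0364%, so 1 of 6 in CSD1 is near the share there. Ppp1r15a (GADD34), which brings the phosphatase that reverses eIF2 phosphorylation, gave the largest difference of all 29 genes in CSD14 and CSDrec. It was at 4.66, 5.54 and 5.08 in CSD1, 5.37, 5.32, 5.18 and 4.91 in CSD7, 5.39, 5.52, 4.96 and 5.33 in CSD14, 5.03, 5.13, 5.22 and 4.99 in CSDrec, against 4.10, 4.05, 4.61 and 4.64 in HC. All stressed animals exceeded all HC animals, CSD1 animal 4 and HC animal 6 being the closest at 4.66 and 4.64, and CSD1 spanned the widest range. It rose by 0.74 in CSD1, 0.85 in CSD7 and 0.95 in CSD14 (1.93-fold; limma adjusted p = 0.0355, 0.017 and 0.0134), with 0.74 ± 0.18 in CSDrec (adjusted p = 0.0605). When HC animals 1 and 2 were left out, it was 0.47, 0.57, 0.68 and 0.47.

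Ddit4 (REDD1), an inhibitor of mTORC1 that also responds to glucocorticoids and hypoxia, was the one gene whose differences did not shrink without HC animals 1 and 2. It was at 7.09, 8.81 and 8.33 in CSD1, 7.95, 8.61, 8.21 and 7.82 in CSD7, 7.98, 7.91, 8.18 and 8.42 in CSD14, 7.58, 7.51, 7.50 and 7.56 in CSDrec, against 7.60, 7.02, 7.49 and 6.98 in HC. CSD7 and CSD14 lay wholly above HC, CSDrec lay between HC animals 5 and 1, and CSD1 was split, with animal 4 at 7.09 inside the HC range and animals 18 and 19 at 8.81 and 8.33. It rose by 0.87 in CSD7 (limma adjusted p = 0.0438), while 0.80 ± 0.29 in CSD1 and 0.85 ± 0.27 in CSD14 did not pass (adjusted p = 0.0835 and 0.0562) and CSDrec was at 0.26 ± 0.27 (adjusted p = 0.536). Against HC animals 5 and 6 only, it was 0.84, 0.91, 0.88 and 0.30. Every CSDrec animal was below every CSD14 animal, which among all rows held for 2.33%, and the difference of -0.58 ± 0.27 had an unadjusted limma p of 0.0415 but did not pass (adjusted p = 1.0).

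Trib3, a pseudokinase that feeds back on CHOP, was at 4.06, 4.07 and 4.17 in CSD1, 4.02, 4.31, 4.19 and 4.05 in CSD7, 4.23, 4.25, 4.26 and 4.21 in CSD14, 4.00, 4.30, 3.99 and 4.12 in CSDrec, against 3.47, 3.56, 3.92 and 4.14 in HC. It rose in CSD14 (0.47, limma adjusted p = 0.0286), whose 4 animals lay close together and above HC. Sesn2, a sestrin that links Atf4 to mTORC1, was at 4.68, 4.55 and 4.64 in CSD1, 4.70, 4.73, 4.55 and 4.56 in CSD7, 4.67, 4.59, 4.66 and 4.59 in CSD14, 4.69, 4.70, 4.57 and 4.58 in CSDrec, against 4.19, 3.98, 4.57 and 4.49 in HC. It rose in CSD7 (0.33, adjusted p = 0.0447) and had nearly the same mean, 4.62 to 4.63, in all 4 stress groups. The differences of Trib3 and Sesn2 against HC animals 5 and 6 only were 0.075, 0.12, 0.21 and 0.075 for Trib3 and 0.092, 0.10, 0.097 and 0.10 for Sesn2. Asns (asparagine synthetase) differed by 0.24 to 0.45 and Chac1, which degrades glutathione, by 0.01 to 0.13, and neither passed in any group. Against HC animals 5 and 6 only, Chac1 was lower in all 4 groups (-0.16, -0.038, -0.10 and -0.077), as Asns was in CSD14 and CSDrec (0.12, 0.029, -0.044 and -0.083).

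**Figure D4:**
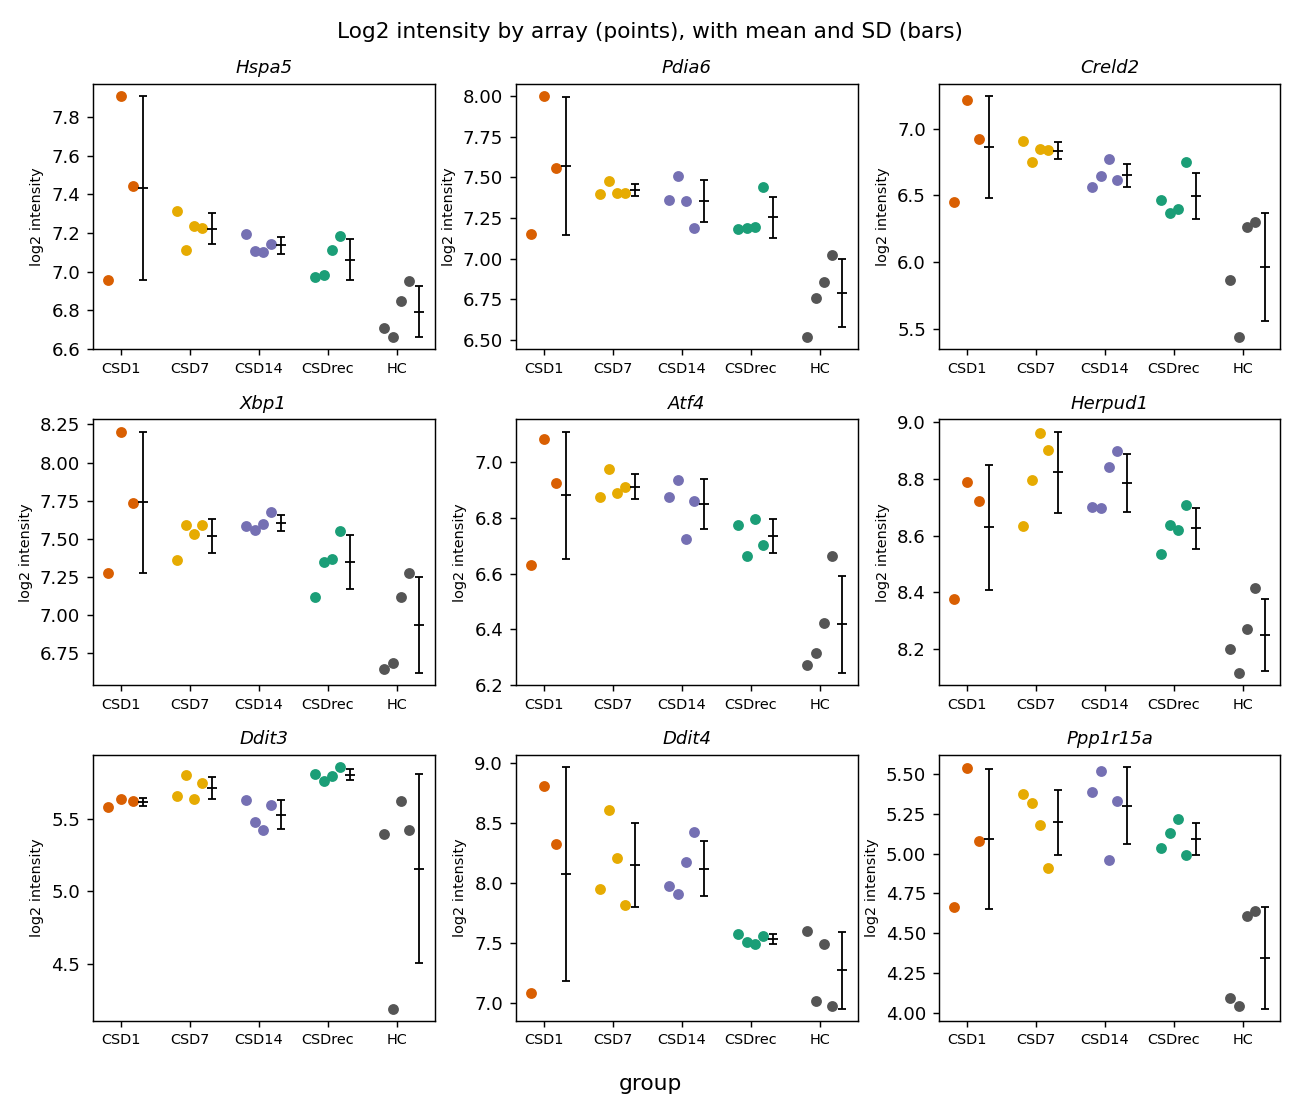
Log2 intensity of 9 genes on each array (points), with group mean and SD, in CSD1, CSD7, CSD14, CSDrec and HC. Hspa5, Pdia6 and Creld2 step down through the stress groups from the CSD1 mean to CSDrec, Ddit4 lies within the HC range in CSDrec, and Ddit3 is highest in CSDrec with 1 low HC array at 4.19.

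Setting the 13 chaperones beside the 6 targets, the mean over chaperones was 7.68 ± 0.29 in CSD1, 7.57 ± 0.014 in CSD7, 7.51 ± 0.044 in CSD14, 7.46 ± 0.088 in CSDrec and 7.13 ± 0.26 in HC (log2 intensity, mean ± SD over animals). The mean over targets was 5.02 ± 0.20 in CSD1, 5.06 ± 0.13 in CSD7, 5.06 ± 0.030 in CSD14, 4.91 ± 0.035 in CSDrec and 4.57 ± 0.24 in HC. Chaperones averaged highest in CSD1 and lower with each later group, whereas targets were highest in CSD14 and CSD7. The pooled SD between animals was 0.17 for chaperones and 0.15 for targets. The order of the targets rested on CSD1 animal 4: without it their CSD1 mean was 5.12, above those of CSD14 and CSD7. CSD1 was the highest group for 12 of 13 chaperones but for 1 of 6 targets (Asns), while Ddit4 and Chac1 were highest in CSD7, Ppp1r15a and Trib3 in CSD14, then Sesn2 in CSDrec. The place of CSD1 rested on animal 18: animals 4, 18 and 19 had chaperone means of 7.38, 7.96 and 7.71, and animal 18 was the top array for 12 of 13 chaperones. Without it the CSD1 mean was 7.55, below that of CSD7, and CSD1 was the highest stress group for 4 of 13. The median over rows above the receptor level was 4.45 on the array of animal 18, within the range of the other stressed animals (4.39 to 4.50). Its SD over all rows was the largest of the 19 arrays, at 1.84, with CSD1 animal 19 next at 1.83 and the others at 1.54 to 1.80. It also told positive from negative controls best (area under the ROC curve 0.929). The part of this wider spread in its chaperone values was not tested.

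The gap between the means of chaperones and targets was 2.67 ± 0.095 in CSD1, 2.52 ± 0.14 in CSD7, 2.45 ± 0.048 in CSD14, 2.56 ± 0.11 in CSDrec and 2.55 ± 0.081 in HC. The gap was widest in CSD1 and narrowest in CSD14, where all 4 animals (2.39 to 2.49) lay below all 3 CSD1 animals (2.58 to 2.77), but both groups overlapped with HC (2.47 to 2.65). Relative to HC it changed by 0.11, -0.038, -0.11 and 0.0033 in CSD1, CSD7, CSD14 and CSDrec, against a pooled SD between animals of 0.099. Against HC animals 5 and 6 only the changes were 0.092, -0.060, -0.13 and -0.019. With all arrays set to 1 distribution they were -0.037, -0.14, -0.21 and -0.047, so that the direction in CSD1 and CSDrec turned. Without Ddit4 among the targets it was 3.28, 3.13, 3.06 and 3.08 in CSD1, CSD7, CSD14 and CSDrec, and 3.09 in HC. Median differences from HC were 0.60, 0.43, 0.40 and 0.29 for chaperones and 0.39, 0.36, 0.39 and 0.30 for targets. Against HC animals 5 and 6 only they were 0.31, 0.21, 0.18 and 0.16 for chaperones and 0.11, 0.11, 0.15 and 0.090 for targets. With all arrays set to 1 distribution they were 0.17, 0.10, 0.10 and 0.10 for chaperones and 0.22, 0.19, 0.24 and 0.074 for targets, so that targets then stood above chaperones in CSD1, CSD7 and CSD14. The levels in both lists are means of rows with different probes, so only the changes between groups can be read.

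**Figure D5:**
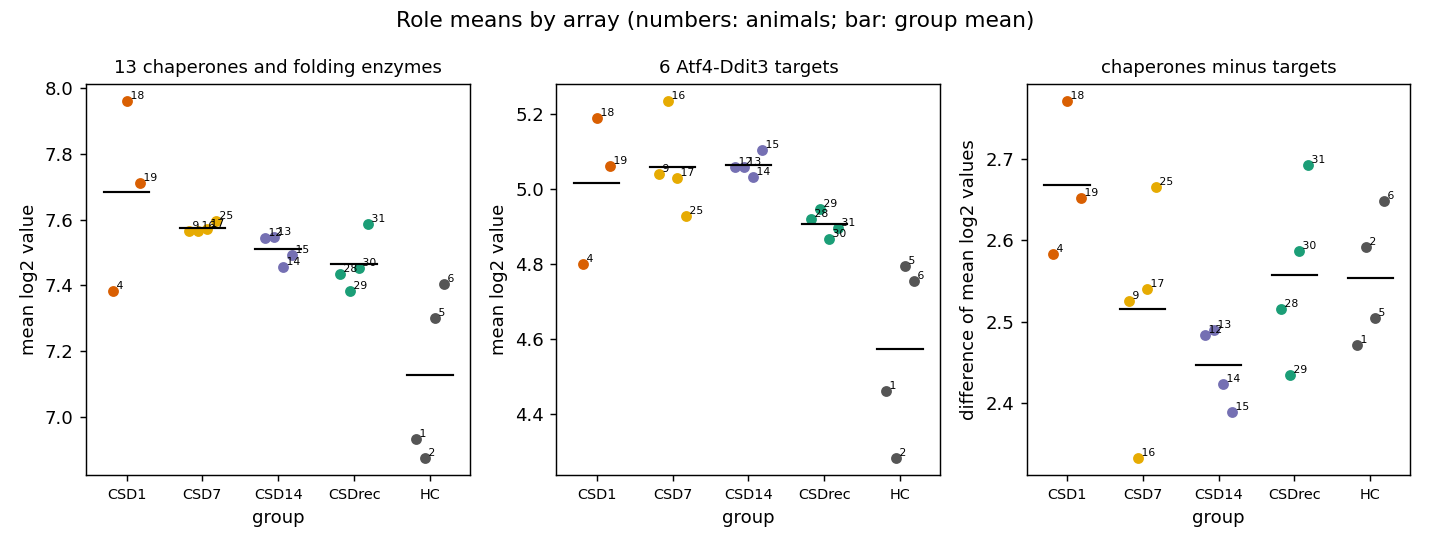
Mean log2 value of the 13 chaperones (left) and 6 targets (middle) and their difference (right) on each array, with animal numbers and group means, for CSD1, CSD7, CSD14, CSDrec and HC. Chaperone means are spread from 7.38 to 7.96 in CSD1 but lie within 7.57 to 7.59 in CSD7, and HC animals 1 and 2 are lowest in both role means but not in the difference.

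Between the stress groups themselves, where no HC array enters, no gene passed. The limma F-test over CSD1, CSD7, CSD14 and CSDrec called 0 of 29, with 0 at an unadjusted p below 0.05, as did the unmoderated one-way test; 0 of all rows were called. With array weights, 8 genes were called by this F-test and 6 in CSD14 minus CSD1. These weights were 9.91 for CSD1 animal 19 against 0.51 and 1.38 for CSD1 animals 4 and 18, so CSD1 then rested largely on 1 animal. The share of all rows called with these weights is not given, so the counts do not set the genes apart from other rows. All 13 chaperones were lower in CSD14 than in CSD1, by a median of 0.20, none with an unadjusted p below 0.05. In CSD7 12 of 13 were lower than in CSD1, by a median of 0.15, again none with an unadjusted p below 0.05. Rows above the receptor level differed by a median of -0.020 in CSD14 minus CSD1 and -0.0056 in CSD7 minus CSD1. Without CSD1 animal 18 the chaperone mean of CSD1 was 7.55, against 7.51 in CSD14 and 7.57 in CSD7. For CSDrec minus CSD14, 23 of 29 differences were negative, with a median of -0.074, and Ddit4 alone had an unadjusted p below 0.05. Of the genes that had risen in CSD14, Herpud1 differed by -0.16 ± 0.096, Xbp1 by -0.26 ± 0.16, Ppp1r15a by -0.21 ± 0.18, Creld2 by -0.15 ± 0.17 and Pdia6 by -0.10 ± 0.14 in CSDrec minus CSD14, each within 2 standard errors of 0. The absence of called genes in CSDrec against HC is thus no test that recovery differed from defeat.

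Other genes of the same pathways also stood above HC at the median. Of rows above the receptor level, 12.6%, 19.2%, 14.5% and 0.0364% were called higher in CSD1, CSD7, CSD14 and CSDrec. The median differences of those rows were 0.23, 0.22, 0.21 and 0.22. Among 17 other ER folding genes, 10, 9, 5 and 0 rose in CSD1, CSD7, CSD14 and CSDrec, with medians of 0.54, 0.46, 0.36 and 0.31. Ganab, the glucosidase subunit that trims new glycoproteins, increased by 0.74, 0.68 and 0.67 in CSD1, CSD7 and CSD14 (limma adjusted p = 0.027, 0.0152 and 0.0129), Cnpy2 rose by 0.83 in CSD1 and 0.65 in CSD7, and Txndc5, a disulfide isomerase, rose by 0.72, 0.74 and 0.64. Among 14 genes of degradation and translocation, 8, 5, 5 and 0 rose, with Derl1, of the export channel, at 0.79, 0.71 and 0.59 and the lectin Os9 at 0.54, 0.58 and 0.55 in CSD1, CSD7 and CSD14. Among 14 other sensors and regulators, 7, 9, 8 and 0 rose. They included Mbtps1 (0.70, 0.67 and 0.67), the protease that cleaves ATF6, and Eif2ak1 (0.65 in CSD1 and CSD7), the haem-regulated eIF2 kinase.

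Among 22 other Atf4 target genes, 7, 11, 8 and 1 rose in CSD1, CSD7, CSD14 and CSDrec, with medians of 0.27, 0.37, 0.31 and 0.22. The median in CSDrec equalled that of rows above the receptor level (0.22), and the median in CSD1 was near theirs (0.23). Shmt2, mitochondrial serine hydroxymethyltransferase, increased by 0.62, 0.54 and 0.60 in CSD1, CSD7 and CSD14, Pck2, mitochondrial phosphoenolpyruvate carboxykinase, by 0.55, 0.53 and 0.56, and Gars, glycyl-tRNA synthetase, by 0.64 in CSD1 and 0.55 in CSD7. Of the enzymes that make serine, Phgdh and Psph passed in no group and Psat1 in CSD7 only (0.60, adjusted p = 0.0378). Atf3, a stress-induced transcription factor downstream of Atf4, was the only gene of these lists called in CSDrec, with a rise of 1.32 ± 0.21 (limma adjusted p = 0.0464), and it rose by 0.94 in CSD7 and 1.02 in CSD14 (adjusted p = 0.0193 and 0.0171). No gene of these 4 lists fell in any group. These lists were fitted with all 4 HC animals only.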

How the data were processed

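RNA from sorted CD31+ cells of single brains was hybridised to 19 Clariom D arrays. The deposited table holds log2 intensities that the authors normalised together by RMA. The submitters' processing notes name Affymetrix Expression Console and the methods name Partek Genomics Suite, and the genome build was not stated in either. By these descriptions background, quantile scaling and probe summary were already done. The deposited arrays did not share 1 distribution, however. Their SD over all rows ran from 1.54 (HC animal 2) to 1.84 (CSD1 animal 18). Their median of rows above the receptor level ran from 4.00 (HC animal 2) to 4.50 (CSD1 animal 4). Of 72688 rows, 6732 control rows were left out; 30638 of the others carry 1 gene symbol, 2176 several and 33142 none. No filter on low values was applied in the tests. The number of arrays limits the precision.

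A linear model with 1 mean per group was fitted to all 65956 rows with limma 3.58.1 (R 4.3.3; 14 residual and 3.60 prior degrees of freedom), two-sided, with Benjamini-Hochberg adjustment over all rows and a threshold of 0.05; F-tests compared 5 or 4 groups. The methods' one-way test, unmoderated, was an alternative. Differences are the first-named group minus the second. All 31 genes were to be named by role, with array values for those past the threshold in any comparison and for Hspa5, Xbp1, Atf4, Ddit3, Ddit4 and Herpud1; from other pathway lists up to 4 genes with large differences were named. Members and lists were chosen with earlier results of these data known. On simulated data for CSD7 minus HC (65956 rows) the fit found 51 of 100 rows changed by log2 0.5. It found 91 of 100 changed by log2 1, with 3 others called. The simulated noise was drawn for each row on its own, without the shifts of whole arrays seen among the HC arrays. These counts therefore do not give the power or the rate of false calls on the real arrays. Alternatives were other scalings, array weights, filters, pairwise fits, and leaving out animals. Promoter windows were searched with Python 3.11.15, and figures drawn with matplotlib 3.10.9.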

Additional observations from a re-analysis of the deposited data

Results flagged for a closer look

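Within groups of 4 animals, 7 of 116 gene and group combinations had 1 array farther from the others than Dixon's 95% critical value allows, and chance flags about 1 in 20 groups. Calr was at 8.24 in CSDrec animal 31 (others 7.94 to 7.98), and Pdia6 at 7.44 in the same animal (others 7.18 to 7.20). Pdia6 was at 7.48 in CSD7 animal 16 (others 7.39 to 7.41), and P4hb at 8.73 in CSD14 animal 13 (others 8.55 to 8.57). Edem1 was at 5.55 in CSDrec animal 30 (others 5.13 to 5.18). Dnajc3 was low in CSD14 animal 14, at 7.61 (others 7.80 to 7.83). Ddit3 was low in HC animal 2, at 4.19 (others 5.39 to 5.62), which enters every Ddit3 difference from HC. CSD1, with 3 animals, was not examined in this way.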

How the results depend on the processing

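The counts of called genes depended on HC animals 1 and 2 and on scaling. The share of all rows called in each setting is not given in this section. The counts here therefore show only how they moved, and do not set the genes apart from other rows. With HC animals 5 and 6 only, 0, 0 and 0 genes were called in CSD1, CSD7 and CSD14 and 0 by the F-test over 5 groups; chaperone medians were 0.31, 0.21 and 0.18 there, and target medians 0.11, 0.11, 0.15 and 0.090 with CSDrec last. Differences turned negative for Dnajb9 (-0.081, -0.15, -0.12 and -0.21), Chac1 (-0.16, -0.038, -0.10 and -0.077), Dnajc3 (-0.10 and -0.15 in CSD14 and CSDrec), Asns (-0.044 and -0.083 likewise) and Syvn1 (-0.018 in CSDrec). Forcing 1 distribution on all arrays gave 0, 0 and 1 calls and 0 by the F-test, chaperone medians of 0.17, 0.10, 0.10 and 0.10, target medians of 0.22, 0.19, 0.24 and 0.074, and gaps of -0.037, -0.14 and -0.21. Negative there were Dnajb9 (-0.15, -0.14, -0.091 and -0.13), Syvn1 (-0.011 in CSD1), Chac1 (-0.076, -0.031 and -0.037 in CSD1, CSD14 and CSDrec), Hsp90b1 (-0.020) and Canx (-0.12) in CSD14, Dnajc3 (-0.040 and -0.067 in CSD14 and CSDrec), and Hspa5 (-0.021) and Atf4 (-0.0064) in CSDrec. Centring on the median of rows above the receptor level gave 8, 6 and 2 calls and 0 by the F-test, chaperone medians of 0.33, 0.17, 0.17 and 0.041 and target medians of 0.13, 0.099, 0.16 and 0.048. Negative there were Dnajb9 (-0.062, -0.13, -0.068 and -0.18), Chac1 (-0.25, -0.13, -0.16 and -0.16), Hsp90b1 (-0.020 and -0.047 in CSD14 and CSDrec), Canx (-0.11 in CSD14), and Dnajc3 (-0.051) and Asns (-0.0049) in CSDrec. Array weights (9.91 for CSD1 animal 19, 0.171 and 0.113 for HC animals 1 and 2) gave 3 calls in CSD7, 4 in CSD14, 6 in CSD14 minus CSD1, 18 by the F-test over 5 groups and 8 over 4, a chaperone median of 0.43 in CSD1 and target medians of 0.20, 0.15, 0.21 and 0.14. Negative there were Chac1 (-0.19, -0.017, -0.057 and -0.040), Dnajb9 (-0.066, -0.053 and -0.15 in CSD7, CSD14 and CSDrec), Dnajc3 (-0.031 and -0.074 in CSD14 and CSDrec) and Asns (-0.022 in CSDrec). Pairwise fits called 0, 0 and 0. Testing only rows above the receptor level called 3 in CSDrec and 9 by the F-test, and a trended robust prior called 0 by the F-test. The unmoderated one-way test called 0, 9 and 6, and 0 by the F-test. Leaving out 1 animal at a time, calls ranged from 0 to 25 in CSD1 (0 without CSD1 18, CSD1 19, HC 1 or HC 2), 0 to 26 in CSD7 (0 without HC 1 or HC 2; 6, 5 and 10 without CSD7 16, 17 and 25), 0 to 21 in CSD14 (0 without HC 1; 2 without HC 2, CSD14 12 or 13; 4 without 14; 6 without 15), 0 to 21 in CSDrec (16 without HC 5, 21 without HC 6) and 0 to 19 by the F-test (14 without CSD1 4 or HC 5, 19 without HC 6). In CSD1, CSD7, CSD14 and CSDrec, chaperone medians then ranged over 0.41 to 0.70, 0.36 to 0.52, 0.30 to 0.45 and 0.23 to 0.36, target medians over 0.30 to 0.50, 0.27 to 0.47, 0.30 to 0.49 and 0.20 to 0.37, and gaps over 0.063 to 0.16, -0.088 to 0.023, -0.13 to -0.076 and -0.042 to 0.044. Chac1 turned negative in CSD1 (-0.14 without CSD1 4 and -0.095 without HC 2, against 0.12 without CSD1 18), CSD14 (-0.039) and CSDrec (-0.015, both without HC 2), and Dnajb9 in CSDrec (-0.0099 without HC 1, -0.037 without HC 2). The cause was not tested. No paired analysis was possible because the groups share no replicate numbers.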
